A study of Homo sapiens with 8 samples.

Results

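The genes described here encode the digestive enzymes of the lysosome, the small proteins that present lipids to those enzymes, proteins of the lysosomal membrane and subunits of the proton pump that acidifies it. They were taken from a list of 44 symbols, all of which were found by name in a table of 60240 genes. Those whose values averaged 10 or more across the 8 libraries were kept, which left 42 of the 44 among the 17534 genes tested. Of the other two, LGMN (legumain, an asparaginyl endopeptidase) lay between 0 and 22.8 in the 8 libraries, and IDUA (alpha-L-iduronidase) reached at most 15.1. SGSH, the lowest of those kept, lay between 3.57 and 69.0. All 42 genes were above 0 in all 8 libraries. In DMSO the mean was at least 1000 for 21 of them, from 100 to under 1000 for 15 and under 100 for 6.

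RNA came from HL-60, an established human promyelocytic leukaemia line, labelled WT, in 4 groups of 2 libraries each, collected at 72 h. The control group received DMSO, the solvent. The decitabine group received 100 nM of this deoxycytidine analogue, which is built into DNA and traps DNA methyltransferases, on days 0, 1 and 2. The RG3039 group received 2 µM of this inhibitor of the mRNA decapping scavenger enzyme DCPS on day 0, and the combination group received both drugs on those schedules. Both libraries of a group came from 1 cell line seeded in duplicate wells, so p-values measure the spread between such wells. The question the design poses is how each treatment, and the drugs together, changed RNA levels.

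Lysosomal hydrolases work in an acid lumen, and most are carried there from the Golgi by mannose 6-phosphate receptors. Many genes of the pathway carry a CACGTG-containing promoter element that transcription factors of the MiT family (TFEB, TFE3, MITF and TFEC) can bind. In promyelocytes the azurophil granule is a lysosome-related store that holds several of the same hydrolases beside MPO and ELANE, and monocytes and macrophages are rich in cathepsins.

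The deposited values are normalised read counts of 3′ tags, and the depth behind each library was estimated at between 20711800 and 40948100 reads. All 10 azurophil granule and promyelocyte markers, MPO and ELANE among them, read 10 or more in every library, as the label HL-60 implies. The summed value of 16 monocyte and neutrophil maturation markers was 28638 and 34938 in DMSO, 43058 and 46006 in decitabine, 72992 and 74610 in RG3039 and 96710 and 113603 in the combination. Much of that sum was S100A8, S100A9 and CYBB, at means of 24736, 23477 and 10308 over the 8 libraries. The macrophage markers CD163 and MSR1 averaged 4.02 and 1.83 and were not tested. The sums did not overlap between groups. Of the 14 tested markers 3 were called higher and 0 lower in decitabine. In RG3039 9 were higher and 1 lower, and in the combination 11 were higher and 1 lower. The lysosomal counts given next have the same order, and so do the shares of all genes called higher (1.74%, 4.53% and 11.4%). Of the 10 azurophil granule and promyelocyte markers, 1 was called higher and 0 lower in decitabine. In RG3039 1 was higher and 3 lower, and in the combination 2 were higher and 3 lower. These are 10%, 40% and 50% of the 10, beside 2.14%, 8.12% and 24.1% of all genes called. The shares of all genes called lower were 0.405%, 3.59% and 12.7%. Summed values of the 10 were 313307 and 374889 in DMSO and 354184 and 392912 in decitabine. They were 320122 and 314200 in RG3039 and 257081 and 293020 in the combination. A list of 14 lymphoid, stromal and epithelial markers was also summed. In it MS4A1 and COL3A1 were at 0 in all libraries. The summed value went from 1413 and 963 in DMSO to 5078 and 5071 in the combination. Much of that sum was PECAM1, an adhesion molecule that myeloid cells also carry, at 608 and 582 in DMSO and 3085 and 3460 in the combination. The keratin genes KRT8 and KRT18 were the next highest, at means of 443 and 388 over the 8 libraries. Of the 9 tested markers of this list, 5 were called higher and 0 lower in the combination (55.6%, beside 24.1% of all genes called). All 9 had positive changes there, with a median log2 fold change of 2.44. In RG3039 1 was called higher and 0 lower, and in decitabine none was called. The part of any of the 3 lists in the results was not tested, and in bulk RNA fewer cells of a type and less RNA per cell cannot be told apart.

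Under both drugs together, 14 of the 42 lysosomal genes rose and 2 fell against DMSO. In these counts and below, a gene is called at an adjusted p under 0.05 (limma, two-sided, Benjamini-Hochberg over all 17534 genes). In data simulated for the same numbers of genes and libraries, the share of false calls ran above the nominal level in most contrasts. Those data held normal noise and few changed genes, so they give no rate for the contrasts here. Calls near the threshold are taken as weak. These 16 genes are 38.1% of the 42, beside 24.1% of all genes tested called in that comparison (11.4% higher and 12.7% lower). In RG3039 alone 7 rose and 1 fell, which is 19.0% of the 42 beside 8.12% of all genes (4.53% higher and 3.59% lower). In decitabine alone 1 rose and none fell, 2.38% beside 2.14% (1.74% higher and 0.405% lower), so its count stood near that of all genes. The median log2 fold change of the 42 genes was 0.45 in the combination, 0.12 in RG3039 and 0.15 in decitabine, beside 0.04, -0.00 and 0.01 over all genes. Standard errors of these fold changes had a median of 0.23 for the 42 genes and 0.32 for all genes, and their part in the counts was not tested.

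In the combination 23 of the 42 genes had both libraries above both DMSO libraries and 6 had both below, beside 32.2% and 30.6% of all genes. Of 18 genes called in at least 1 treatment against DMSO, IDS was called in all 3. CTSD, CTSZ, GAA and NAGLU were higher and LIPA was lower in both RG3039 and the combination. PPT1 and ATP6V1B2 were called only in RG3039. CTSB, CTSL, GUSB, FUCA1, FUCA2, SMPD1, PSAP, GRN and ATP6AP1 were called higher, and GLA lower, in the combination and in neither single drug. A call in one treatment and not in another does not show a difference between treatments, which is tested further on. Of the 16 calls in the combination 7 held without each of the 8 libraries in turn (CTSB, CTSD, CTSZ, GAA, GLA, IDS and SMPD1). Of the 8 in RG3039 only GAA and IDS did so. The count in RG3039 was 4 with no filter on low values or with only the groups compared, and 3 without the variance trend. In the combination it was 10 with no filter and 8 without the trend, and in decitabine 3 with quantile normalisation and 0 without the trend.

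**Figure D1:**
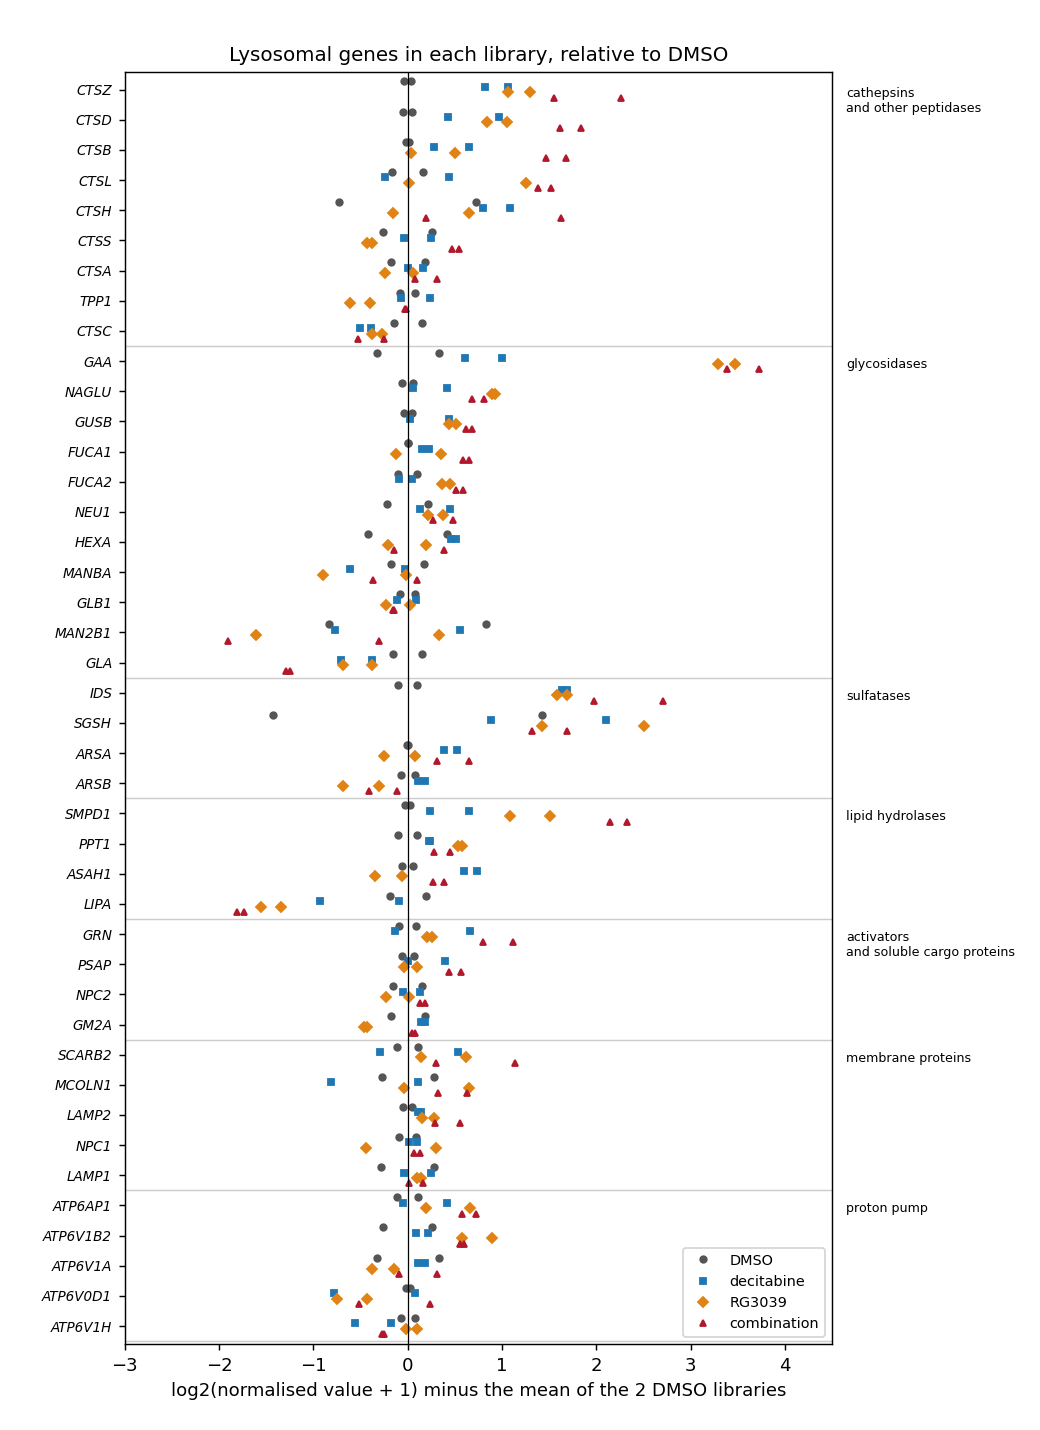
Each point is 1 library, drawn as log2(normalised value + 1) minus the mean of the 2 DMSO libraries, for all 42 genes grouped by role and ordered within a role by the change in the combination. Both combination points lie right of 0 for CTSZ, CTSD, CTSB, GAA, IDS and SMPD1 and left of 0 for LIPA and GLA, while those of MAN2B1 lie far apart.

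The cathepsins and other peptidases, which cut proteins in the lysosome, held 9 tested genes, of which 4 rose in the combination, 2 in RG3039 and none in decitabine. These are 44.4%, 22.2% and 0%, beside 24.1%, 8.12% and 2.14% of all genes called. CTSD encodes cathepsin D, the main aspartic protease of the lysosome (ENSG00000117984.14, chromosome 11, 1752752 to 1764573, minus strand, coordinates on GRCh38 from GENCODE 29). CTSD was at 7063 and 6620.5 in DMSO, 9179.5 and 13354 in decitabine, 12271 and 14148 in RG3039 and 24454 and 20925 in the combination. All 6 treated libraries were above the DMSO libraries, and both combination libraries were above all others. CTSD rose 1.93-fold in RG3039 (log2 fold change 0.95 ± 0.18, SE, here and below on the log2(value + 1) scale, adjusted p = 0.0144) and 3.31-fold in the combination (1.73 ± 0.18, adjusted p = 0.000269). In decitabine its change was 0.70 ± 0.18 with an adjusted p of 0.0883. The combination was also above decitabine alone (1.03 ± 0.18, adjusted p = 0.012), and its difference from RG3039 was 0.78 ± 0.18 with an adjusted p of 0.0617. The RG3039 call was lost without DMSO replicate 2 or either RG3039 library (adjusted p 0.0562 to 0.112). The call against decitabine was lost without decitabine replicate 1 or either combination library (0.0591 to 0.106).

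CTSB encodes cathepsin B, a cysteine protease (ENSG00000164733.21, chromosome 8, 11842524 to 11869448, minus strand). Its values were 1651 and 1610.3 in DMSO, 1977 and 2558 in decitabine, 1667 and 2317 in RG3039 and 4504 and 5229 in the combination. The combination libraries stood apart from the other 6, which lay within 1610.3 to 2558. CTSB rose 2.98-fold in the combination against DMSO (1.57 ± 0.20, adjusted p = 0.000611), and it was higher than in decitabine (1.11 ± 0.20, adjusted p = 0.0114) and in RG3039 (1.30 ± 0.20, adjusted p = 0.014). The single drugs gave 0.46 ± 0.20 and 0.27 ± 0.20 against DMSO, with adjusted p of 0.258 and 0.463. Against decitabine the call was lost without decitabine replicate 1 or either combination library (0.0572 to 0.0959), and against RG3039 without RG3039 replicate 1 or either combination library (0.104 to 0.119).

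CTSZ encodes cathepsin Z, a carboxypeptidase of the same family (ENSG00000101160.14, chromosome 20, 58995185 to 59007247, minus strand). It read 586 and 619 in DMSO, 1066 and 1262 in decitabine, 1259 and 1485 in RG3039 and 1772 and 2893 in the combination. No treated library reached down to the DMSO level, and the combination replicates lay far from each other. CTSZ rose in RG3039 (1.18 ± 0.23, adjusted p = 0.0149) and in the combination (1.91 ± 0.23, adjusted p = 0.000535), and the combination was above decitabine (0.96 ± 0.23, adjusted p = 0.0371). Decitabine alone gave 0.94 ± 0.23 with an adjusted p of 0.0728. The RG3039 call was lost without any 1 of the DMSO and RG3039 libraries (0.057 to 0.109). The call against decitabine was lost without either decitabine library, either RG3039 library or combination replicate 2 (0.0542 to 0.213).

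CTSS encodes cathepsin S, the cysteine protease that trims the invariant chain in antigen-presenting cells (ENSG00000163131.11, chromosome 1, 150730196 to 150765957, minus strand). Values were 2101 and 3013 in DMSO, 2443 and 2984 in decitabine, 1928 and 1868 in RG3039 and 3494 and 3673 in the combination. The RG3039 pair was the lowest and the combination pair the highest, with DMSO and decitabine between them. No treatment was called against DMSO, and the combination was higher than RG3039 (0.92 ± 0.19, adjusted p = 0.0419). That call was lost without any 1 of 6 libraries, the exceptions being the DMSO libraries (0.0567 to 0.232).

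Among the remaining peptidases CTSL (cathepsin L) rose in the combination, from 65.2 and 82.0 in DMSO to 193 and 212 (1.45 ± 0.44, adjusted p = 0.0395). It lost the call without either DMSO or either combination library (0.0909 to 0.154). CTSA, the carboxypeptidase that protects neuraminidase and beta-galactosidase, stayed within 1680.4 to 2461 over the 8 libraries and was not called. CTSC, the dipeptidyl peptidase that activates the serine proteases of the azurophil granule, had all 6 treated libraries (2223 to 2701) under both DMSO libraries (2896 and 3549.5), with adjusted p from 0.118 to 0.27 against DMSO. TPP1 (tripeptidyl peptidase) was lowest in RG3039, at 2093 and 2421 against 3390.4 and 3023 in DMSO (-0.51 ± 0.16, adjusted p = 0.0863). CTSH had replicates far apart, with 199.8 and 72.5 in DMSO and 373 and 138 in the combination.

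**Figure D2:**
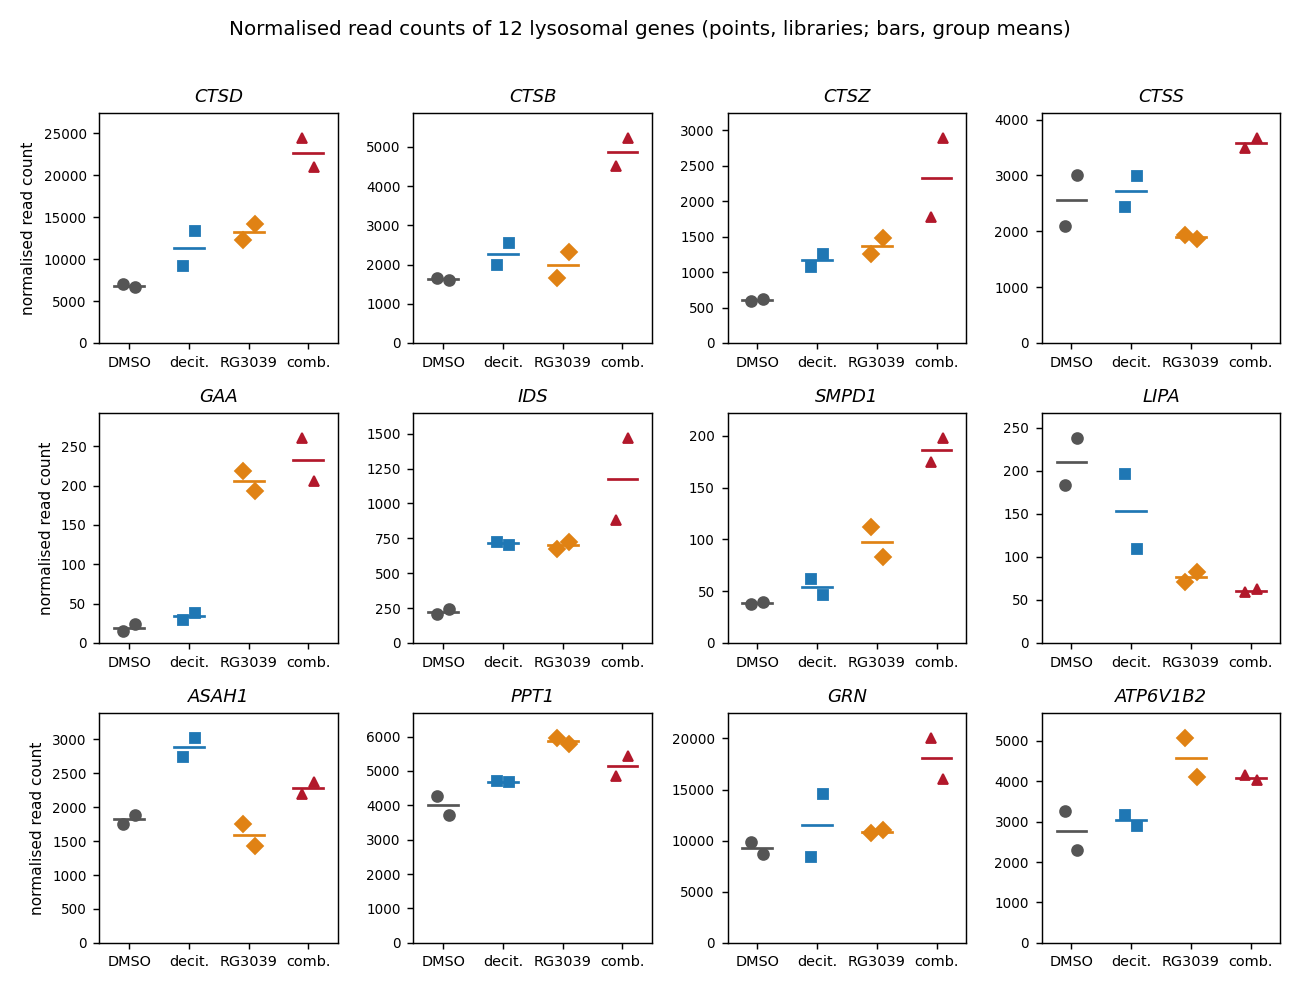
Normalised read counts (vertical axes, starting at 0) of 12 lysosomal genes in the 4 groups, with a point for each library and a bar at the group mean. GAA is high in RG3039 and the combination, CTSB is high in the combination, IDS is raised in all 3 treatments, and LIPA is lowest in RG3039 and the combination.

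The glycosidases remove sugars from glycogen, glycolipids and glycoproteins. Of 11 tested, 5 rose and 1 fell in the combination, 2 rose in RG3039 and none was called in decitabine. These are 54.5%, 18.2% and 0%, beside 24.1%, 8.12% and 2.14% of all genes called. GAA, acid alpha-glucosidase, which breaks down glycogen (ENSG00000171298.13, chromosome 17, 80101556 to 80119879, plus strand), had the largest fold change of the 42 genes in both RG3039 and the combination. It was at 14.7 and 23.9 in DMSO, 29.2 and 38.6 in decitabine, 218 and 193 in RG3039 and 261 and 205 in the combination. The groups without RG3039 and the groups with it did not overlap, and RG3039 and the combination overlapped each other. GAA rose 10.4-fold in RG3039 (3.38 ± 0.38, adjusted p = 0.00119) and 11.7-fold in the combination (3.55 ± 0.38, adjusted p = 0.000289). The combination was also above decitabine (2.75 ± 0.38, adjusted p = 0.00405) and decitabine was below RG3039 (-2.57 ± 0.38, adjusted p = 0.00605). Between the combination and RG3039 the difference was 0.17 with a 95% interval of -0.69 to 1.03. The calls against DMSO held without each of the 8 libraries. Against decitabine the call was lost without combination replicate 1 (adjusted p = 0.0518), and between the single drugs without RG3039 replicate 1 (0.0553).

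The promoter windows of GAA and CTSD are shown because both genes rose in RG3039 and in the combination and both windows hold the CACGTG letters. That of LAMP1, a membrane protein gene that was not called in any comparison, is shown beside them and was chosen after its values were seen. The sequences are from RefSeq on GRCh38.p14, run 5′ to 3′ on the gene's strand, and span 250 bases before to 50 after the start. Capitals mark CACGTG, extended where the flanking letters complete TCACGTGA. GAA lies at chr17:80101331-80101630 on the plus strand, CTSD at chr11:1763878-1764177 on the minus strand and LAMP1 at chr13:113296989-113297288 on the plus strand.
GAA: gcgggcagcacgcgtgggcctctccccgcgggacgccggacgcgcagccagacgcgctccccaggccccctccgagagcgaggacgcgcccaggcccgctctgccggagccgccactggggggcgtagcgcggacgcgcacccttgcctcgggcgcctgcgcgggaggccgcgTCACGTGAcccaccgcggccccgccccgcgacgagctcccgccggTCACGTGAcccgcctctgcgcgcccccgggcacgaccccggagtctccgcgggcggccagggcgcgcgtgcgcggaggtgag
CTSD: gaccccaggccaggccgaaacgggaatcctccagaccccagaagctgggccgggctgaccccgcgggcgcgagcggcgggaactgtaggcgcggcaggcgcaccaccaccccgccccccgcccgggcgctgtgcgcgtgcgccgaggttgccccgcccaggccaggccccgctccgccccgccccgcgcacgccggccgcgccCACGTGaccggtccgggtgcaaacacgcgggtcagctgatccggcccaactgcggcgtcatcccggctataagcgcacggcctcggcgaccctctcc
LAMP1: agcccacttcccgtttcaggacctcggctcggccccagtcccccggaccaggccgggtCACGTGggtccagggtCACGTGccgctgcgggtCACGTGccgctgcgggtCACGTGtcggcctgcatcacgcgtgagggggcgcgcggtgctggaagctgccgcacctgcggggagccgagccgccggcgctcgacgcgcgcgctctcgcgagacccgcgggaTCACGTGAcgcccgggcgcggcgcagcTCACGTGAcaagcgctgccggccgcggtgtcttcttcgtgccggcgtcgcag
GAA held 2 copies of TCACGTGA, each between a G and a C, whose CACGTG cores began 76 and 31 bases before the start. CTSD held 1 CACGTG, 47 bases before it. LAMP1 held 6, the farthest 192 bases before the start and the nearest 1 base before it, 2 of them as TCACGTGA.

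By symbol, 29 of the 42 genes matched the promoter table, with 33 windows in all. The others were CTSB, CTSS, HEXA, MANBA, NAGLU, SGSH, ARSA, ASAH1, PSAP, LAMP2, ATP6V1A, ATP6V1B2 and ATP6V1H. CACGTG, a palindrome and so the same on both strands, was in 8 of the 33 windows (24.2%), beside 7.26% of all 35116 windows of the same length and 9.29% of those of tested genes. The longer palindromes each hold the shorter one. TCACGTGA was in 5 windows (15.2%, beside 0.980% of all and 1.61% of those of tested genes). Its extension to 10 letters by a G before and a C after it was in 2 (6.06%, beside 0.353% and 0.626%). In 77 windows of the other lysosomal genes tested the shares were 22.1%, 10.4% and 5.19%, near those of the 33 windows. The 8 genes were CTSA, CTSD, GAA, NEU1, ARSB, LAMP1, MCOLN1 and ATP6V0D1. Of these 8, 2 were called in the combination, GAA and CTSD, and the median log2 fold change of all 8 was 0.29. Of the 21 genes whose windows lacked the letters, 9 rose and 2 fell, with a median of 0.55. Beside these counts, 24.1% of all genes were called in the combination. Whether genes with and without the letters differ was not tested. A match describes letters only, and a window without them shows only that they are absent from that window. CACGTG was searched because many genes of the pathway were known to carry it, so its share here is no finding of these data.

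GLA, alpha-galactosidase A, which removes terminal galactose from glycolipids (ENSG00000102393.12, chromosome X, 101397803 to 101408012, minus strand), was the glycosidase that fell. It was at 463 and 575 in DMSO, 316 and 397 in decitabine, 396 and 321 in RG3039 and 211 and 217 in the combination. All treated libraries were below both DMSO libraries, and the combination pair was below the rest. GLA fell 2.41-fold in the combination (-1.27 ± 0.23, adjusted p = 0.00417), a call that held without each library. The single drugs gave -0.54 ± 0.23 and -0.53 ± 0.23, with adjusted p of 0.265 and 0.209.

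NAGLU, which cleaves N-acetylglucosamine from heparan sulfate, rose in RG3039, from 172 and 186 in DMSO to 332 and 339.8 (0.91 ± 0.23, adjusted p = 0.0447). It was also higher in the combination, at 287 and 314 (0.75 ± 0.23, adjusted p = 0.0448). GUSB, beta-glucuronidase, rose in the combination from 2227 and 2356 to 3510.5 and 3689 (0.65 ± 0.16, adjusted p = 0.0169). The alpha-fucosidase genes also rose there. FUCA1 went from 1003 and 1004 to 1511 and 1577 (0.62 ± 0.18, adjusted p = 0.0365), and FUCA2 from 782 and 683 to 1044 and 1095 (0.55 ± 0.17, adjusted p = 0.0403). These are changes of under 2-fold, and each of the 5 calls was lost without several single libraries. NAGLU lost its call in RG3039 without any library but decitabine replicate 1 (0.0503 to 0.182) and in the combination without any but the decitabine libraries (0.0675 to 0.183). GUSB lost it without DMSO replicate 1 or either combination library (0.063 to 0.0959). For FUCA1 the libraries were both of DMSO, both of the combination and decitabine replicate 2 (0.0501 to 0.149). For FUCA2 they were those of DMSO, RG3039 and the combination (0.0511 to 0.164).

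The remaining glycosidases, GLB1 (beta-galactosidase), HEXA (the alpha subunit of beta-hexosaminidase), MAN2B1 and MANBA (alpha- and beta-mannosidase) and NEU1 (sialidase), were called in no comparison. GLB1 was the steadiest, within 1259 to 1571 over all 8 libraries. NEU1 lay between 716 and 1159 and HEXA between 900.4 and 1719. MAN2B1 lay between 14.9 and 105, and an overlapping annotated gene on the same strand, AC010422.3, was at 2374 to 5470, so the level of MAN2B1 is uncertain.

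The sulfatases strip sulfate groups from glycosaminoglycans and sulfolipids. IDS, iduronate 2-sulfatase, which acts on heparan and dermatan sulfate (ENSG00000010404.18, chromosome X, 149476990 to 149521096, minus strand), was the one gene of the 42 to be called in every treatment. It was at 209 and 239.7 in DMSO, 725 and 700.5 in decitabine, 675 and 725 in RG3039 and 883 and 1470.0 in the combination. Every treated library was above both DMSO libraries, and the single drugs gave overlapping values. IDS rose 3.17-fold in decitabine (1.67 ± 0.24, adjusted p = 0.0104), 3.12-fold in RG3039 (1.64 ± 0.24, adjusted p = 0.00398) and 5.07-fold in the combination (2.34 ± 0.24, adjusted p = 0.00024). The decitabine call was lost without either decitabine library (0.0834 to 0.0857). The single drugs differed by 0.03, with a 95% interval of -0.52 to 0.57. The pseudogene copy IDSP1 was listed at 0 in all libraries. SGSH (sulfamidase), ARSA (which acts on cerebroside sulfate) and ARSB (which acts on dermatan sulfate) were called in no comparison, and SGSH had replicates as far apart as 32.0 and 3.57 in DMSO. CARD14, at 100 to 169, and SLC26A11, at 19.6 to 111, overlap SGSH on the opposite strand. Their reads cannot be told apart from those of SGSH unless strand was used in counting.

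Each of the 4 lipid hydrolases was called in some comparison, and they did not move together. Against DMSO 2 were called in the combination and 2 in RG3039, 50% each, beside 24.1% and 8.12% of all genes. SMPD1, acid sphingomyelinase, which turns sphingomyelin into ceramide (ENSG00000166311.10, chromosome 11, 6390431 to 6394998, plus strand), was at 38.1 and 39.5 in DMSO, 61.6 and 46.0 in decitabine, 112 and 83.2 in RG3039 and 174 and 198 in the combination. The 4 groups did not overlap and stood in that order. SMPD1 rose 4.70-fold in the combination (2.23 ± 0.35, adjusted p = 0.00202) and was above decitabine there (1.79 ± 0.35, adjusted p = 0.0178). RG3039 alone gave 1.30 ± 0.35, just outside the threshold (adjusted p = 0.0553). The call against decitabine was lost without any 1 of the decitabine and combination libraries (0.0557 to 0.125).

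ASAH1, acid ceramidase, which breaks the ceramide made by SMPD1 (ENSG00000104763.19, chromosome 8, 18055992 to 18084998, minus strand), showed another order. It was at 1748 and 1889 in DMSO, 2742 and 3022 in decitabine, 1745 and 1427 in RG3039 and 2195 and 2375 in the combination. The decitabine pair was the highest, the combination pair came next, and RG3039 lay at or below DMSO. Decitabine was above RG3039 (0.87 ± 0.16, adjusted p = 0.0147), a call lost without either decitabine library or RG3039 replicate 2 (0.0587 to 0.106). Against DMSO, decitabine gave 0.66 ± 0.16 with an adjusted p of 0.0657. With quantile normalisation that p was 0.0268.

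LIPA, lysosomal acid lipase, which frees cholesterol and fatty acids from cholesteryl esters and triglycerides (ENSG00000107798.18, chromosome 10, 89213569 to 89414557, minus strand), fell. Its values were 183 and 238 in DMSO, 197 and 109 in decitabine, 70.5 and 82.0 in RG3039 and 58.7 and 62.3 in the combination. Both groups with RG3039 were below every library without it, and the decitabine replicates straddled the lower DMSO library. LIPA fell 2.73-fold in RG3039 (-1.45 ± 0.36, adjusted p = 0.0392) and 3.42-fold in the combination (-1.77 ± 0.36, adjusted p = 0.0069). The RG3039 call held only without a decitabine library and was lost without any 1 of the other 6 (0.0643 to 0.198), and the combination call was lost without DMSO replicate 2 (0.053). IFIT3 overlaps LIPA on the opposite strand at 101 to 228, and whether counting used strand was not given in the sources used here.

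PPT1, palmitoyl-protein thioesterase, which removes fatty acids from proteins (ENSG00000131238.17, chromosome 1, 40071461 to 40097727, minus strand), was at 4283 and 3732 in DMSO, 4694 and 4676 in decitabine, 5964 and 5779 in RG3039 and 4848 and 5443 in the combination. The treated libraries were all above DMSO, with the RG3039 pair highest. PPT1 rose 1.47-fold in RG3039 (0.55 ± 0.14, adjusted p = 0.0362), and the combination gave 0.36 ± 0.14 (adjusted p = 0.0825). The call held only without DMSO replicate 1 and was lost without any 1 of the other 7 libraries (0.0502 to 0.167). CAP1, at 9839 to 13359, overlaps PPT1 on the opposite strand, so reads of the pair cannot be told apart unless strand was used.

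**Figure D3:**
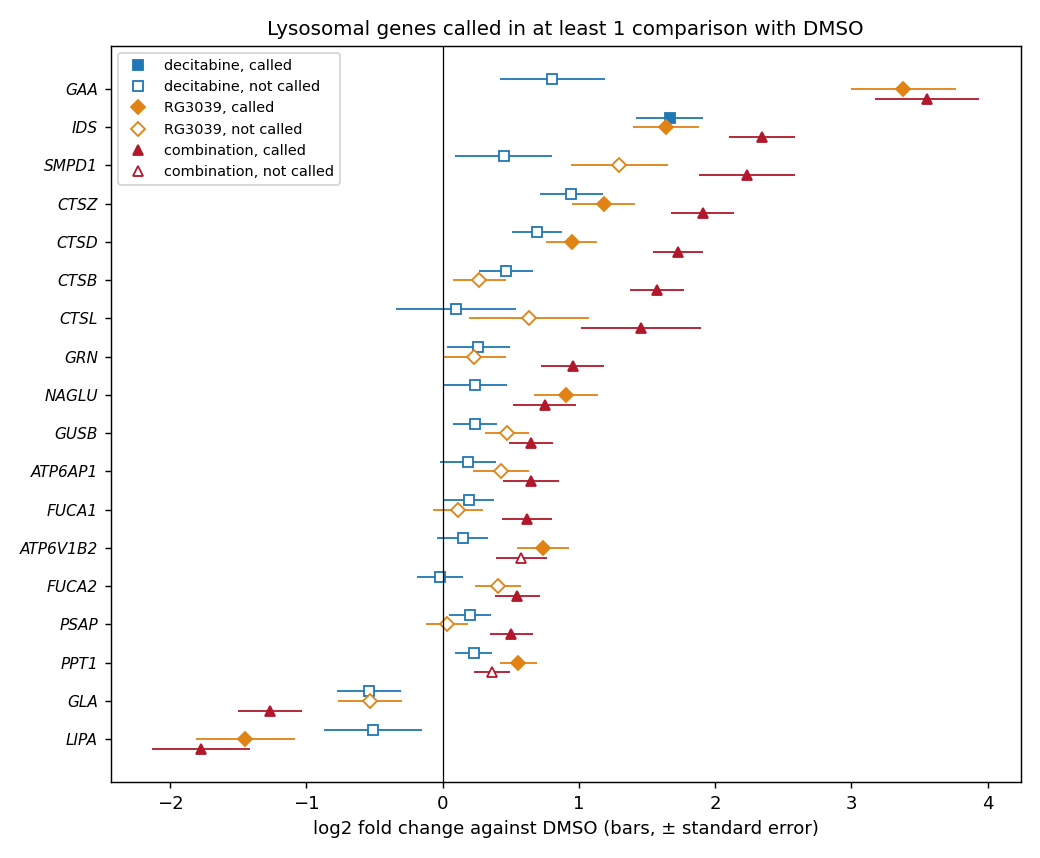
Log2 fold changes against DMSO with their standard errors (horizontal bars) for the 18 genes called in at least 1 treatment, with filled symbols for calls and open symbols for the rest. GAA has the largest rise in RG3039 and the combination, IDS has filled symbols in all 3 treatments, and GLA and LIPA lie left of 0 in all 3 treatments.

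The activators and soluble cargo proteins held 4 genes, of which GRN and PSAP rose in the combination and none was called in a single drug. That is 50% of the 4 in the combination, beside 24.1% of all genes. GRN encodes progranulin, a secreted and lysosomal glycoprotein that is cut into granulins (ENSG00000030582.18, chromosome 17, 44345086 to 44353102, plus strand). GRN was at 9852 and 8693 in DMSO, 8439 and 14581 in decitabine, 10704 and 11049 in RG3039 and 20067 and 16042 in the combination. The combination libraries were above the other 6, and the decitabine replicates lay on both sides of DMSO. It rose 1.94-fold (0.96 ± 0.23, adjusted p = 0.0152), a call lost without DMSO replicate 2 or combination replicate 1 (0.0832 to 0.12). PSAP, the precursor of the saposins that present sphingolipids to their hydrolases, went from 13247 and 12128 in DMSO to 18808 and 17204 in the combination (0.50 ± 0.15, adjusted p = 0.0412). The PSAP call held only without a decitabine library and was lost without any 1 of the other 6 (0.0635 to 0.218). GM2A, the activator of ganglioside breakdown, and NPC2, which carries cholesterol within the lumen, were called in no comparison. GM2A was lowest in RG3039 (1193 and 1162, against 1417 and 1822 in DMSO), with an adjusted p of 0.134. CCDC69, at 522 to 2137, overlaps GM2A on the opposite strand, so reads of the pair cannot be told apart unless strand was used.

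None of the 5 membrane protein genes was called in any of the comparisons, beside 24.1% of all genes called in the combination. Their median log2 fold change in the combination was 0.42, near the 0.45 of the 42 genes, with 5 positive and 0 negative. LAMP2, a major glycoprotein of the lysosomal membrane that also serves chaperone-mediated autophagy (ENSG00000005893.16, chromosome X, 120427827 to 120469365, minus strand), was at 4526 and 4255 in DMSO, 4743 and 4849.5 in decitabine, 4862 and 5325 in RG3039 and 6457 and 5359 in the combination. All treated libraries were above DMSO, by small amounts. In the combination it gave 0.42 ± 0.14 with an adjusted p of 0.0552, which became 0.0229 with quantile normalisation and 0.0460 with a mean value of at least 50. LAMP1, its relative, was at 10461 and 7108 in DMSO and between 8415 and 10257 in the 6 treated libraries, inside the DMSO range. Its difference in the combination was 0.09, with a 95% interval of -0.33 to 0.51. NPC1 (the cholesterol exporter), MCOLN1 (a calcium channel of the membrane) and SCARB2 (the receptor that delivers beta-glucocerebrosidase) had adjusted p of 0.82, 0.512 and 0.185 in the combination. PNPLA6, at 174 to 428, overlaps MCOLN1 on the same strand, so the level of MCOLN1 is uncertain. RMC1, at 254 to 448, overlaps NPC1 on the opposite strand, so reads of that pair cannot be told apart unless strand was used.

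Of the 5 proton pump genes, 1 was called in RG3039 and another in the combination. That is 20% in each, beside 8.12% of all genes in RG3039 and 24.1% in the combination. ATP6V1B2 encodes the B2 subunit of the catalytic V1 sector (ENSG00000147416.11, chromosome 8, 20197367 to 20226819, plus strand). It was at 3272 and 2291 in DMSO, 3168 and 2905 in decitabine, 5078 and 4095 in RG3039 and 4145 and 4033 in the combination. The groups with RG3039 were above every other library and overlapped each other. ATP6V1B2 rose in RG3039 (0.74 ± 0.19, adjusted p = 0.0433), and the combination gave 0.58 ± 0.19, just outside the threshold (adjusted p = 0.0512). The call held only without DMSO replicate 1 and was lost without any 1 of the other 7 libraries (0.0626 to 0.232). ATP6AP1, an accessory protein of the pump, rose in the combination from 2882 and 2461 in DMSO to 4389 and 3977 (0.65 ± 0.21, adjusted p = 0.0468). It lost the call without either DMSO or either combination library (0.0677 to 0.213). ATP6V1A, ATP6V1H and ATP6V0D1 were called in no comparison.

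Between treatments, 5 of the 42 genes were higher in the combination than in decitabine (GAA, CTSB, CTSD, SMPD1 and CTSZ) and none was lower. That is 11.9%, beside 7.33% of all genes (3.94% higher and 3.39% lower). Against RG3039, CTSB and CTSS were higher in the combination and none was lower, 4.76% beside 2.28% (1.49% higher and 0.787% lower). Decitabine and RG3039 differed for ASAH1, higher in decitabine, and GAA, higher in RG3039, 4.76% beside 4.60% (2.67% higher in decitabine and 1.92% lower). The last share was close to that of all genes. These comparisons share libraries with those against DMSO and are not independent of them. None of these 9 calls held without each of the 8 libraries.

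The interaction, which is the effect of RG3039 in the presence of decitabine minus its effect in the absence of it on the log2 scale, was called for none of the 42 genes and for none of the 17534 (0.00%). At an unadjusted p under 0.05 there were 3 of the 42 (7.14%) and 1014 of all genes (5.78%), so the share of the 42 stood near that of all genes. They were CTSB (0.84 ± 0.28, unadjusted p = 0.0135), CTSS (0.81 ± 0.27, unadjusted p = 0.0129) and IDS (-0.96 ± 0.35, unadjusted p = 0.02), each with an adjusted p of 0.854 in limma. The 95% intervals were 0.22 to 1.46, 0.22 to 1.41 and -1.74 to -0.19. The median over the 42 genes was 0.10, with 26 positive and 16 negative, beside -0.01 over all genes. The median standard error of the interaction over the 42 genes was 0.32, with 2 libraries a group.

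**Figure D4:**
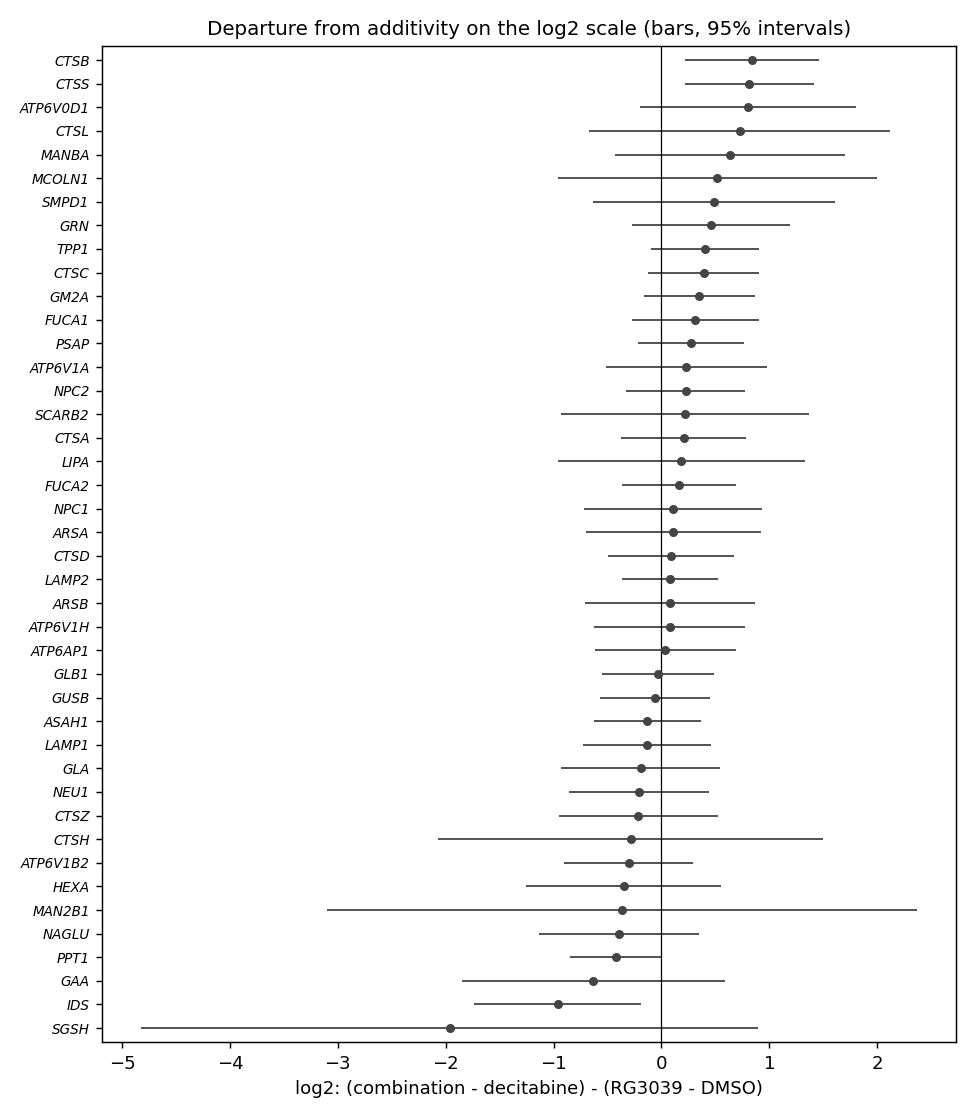
The interaction on the log2 scale, (combination - decitabine) - (RG3039 - DMSO), with 95% intervals for all 42 genes. The intervals of CTSB, CTSS and IDS leave out 0, and those of SGSH, MAN2B1 and CTSH are the widest.

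The 42 genes together took 0.282% and 0.246% of all normalised signal in the DMSO libraries. They took 0.310% and 0.362% in decitabine, 0.318% and 0.332% in RG3039 and 0.474% and 0.433% in the combination. Every treated library was above both DMSO libraries, and the combination pair was above the rest. CTSD, GRN and PSAP supplied 35.2% and 34.5% of the lysosomal signal in DMSO and 48.0% and 43.5% in the combination. Without these 3 genes the share was 0.183% and 0.161% in DMSO and 0.246% and 0.244% in the combination, so the order of these groups was kept.

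**Figure D5:**
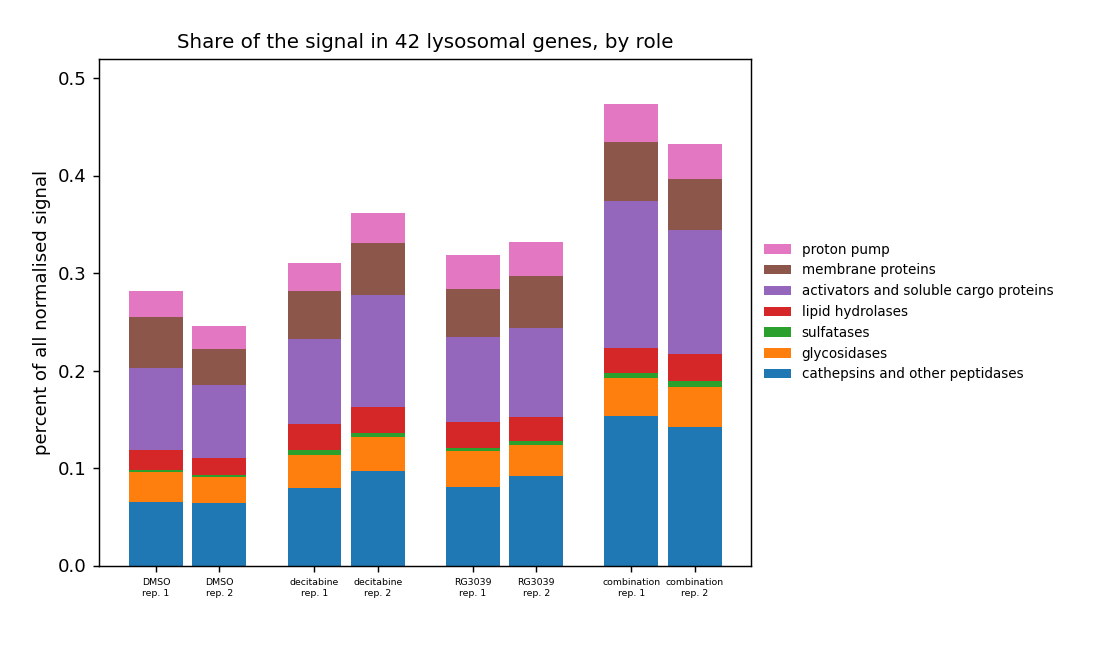
Percent of all normalised signal in the 42 genes for each library, stacked by role from 0. The stacks reach 0.246% to 0.282% in DMSO and 0.433% to 0.474% in the combination, where the peptidases and the activators and cargo proteins are the tallest blocks.

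Further genes of the lysosome outside the 42 were counted the same way. Of 22 other hydrolases tested, 4 rose and 1 fell in the combination (22.7%, near the 24.1% of all genes), with a median log2 fold change of 0.29. In decitabine 1 rose (4.55% beside 2.14% of all genes), and in RG3039 1 fell (4.55% beside 8.12%). DNASE2, the acid DNase of the lysosome, was at 145 and 82.7 in DMSO, 348 and 353 in decitabine, 153 and 119.7 in RG3039 and 591 and 572 in the combination. The decitabine and combination pairs were above the DMSO and RG3039 pairs. DNASE2 rose in the combination (2.40 ± 0.30, adjusted p = 0.0006, held without each library) and in decitabine (1.67 ± 0.30, adjusted p = 0.025). The decitabine call held in 3 of the 8 fits with 1 library left out, with its highest adjusted p, 0.132, without decitabine replicate 1. PLA2G15, a lysosomal phospholipase, rose in the combination (1.08 ± 0.22, adjusted p = 0.00656, and 0.0626 without combination replicate 1).

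Of 15 other pump subunits, 3 rose and 2 fell in the combination (33.3% beside 24.1% of all genes). In RG3039 1 rose (6.67% beside 8.12%), and none was called in decitabine (0% beside 2.14%). ATP6V1C2 was at 101 and 74.0 in DMSO, 60.7 and 98.7 in decitabine, 359 and 279 in RG3039 and 99.0 and 123 in the combination. Both RG3039 libraries were above every other library. None of the 15 subunits was called between the combination and RG3039 (0% beside 2.28% of all genes). Against DMSO the rise of ATP6V1C2 in RG3039 was 1.86 ± 0.35 (adjusted p = 0.0119). The call held in 5 of the 8 fits with 1 library left out, with its highest adjusted p, 0.0977, without RG3039 replicate 1. ATP6V0A1 rose in the combination (1.08 ± 0.23, adjusted p = 0.00916, and 0.0831 without combination replicate 1).

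Of 24 other membrane proteins, 6 rose and 2 fell in the combination (33.3% beside 24.1% of all genes), with a median of 0.19. In RG3039 1 rose and 2 fell (12.5% beside 8.12% of all genes), and in decitabine 1 rose and 1 fell (8.33% beside 2.14%). CD63, a tetraspanin of lysosomes and azurophil granules, went from 12690.5 and 9626 in DMSO to 26768 and 23345 in the combination (1.18 ± 0.16, adjusted p = 0.00105, held without each library). In decitabine CD63 was at 17845 and 21105 (0.81 ± 0.16, adjusted p = 0.0401). That call held in 1 of the 8 fits with 1 library left out, with its highest adjusted p, 0.184, without decitabine replicate 2. PLIN2 stood in that list although its protein coats lipid droplets and is no lysosomal membrane protein. It rose in the combination from 800.0 and 703 to 1953 and 1693 (1.28 ± 0.17, adjusted p = 0.000845).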

How the data were processed

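RNA of 8 HL-60 libraries was measured with the QuantSeq 3′ FWD kit, per the labels. The deposited signal is a normalised read count per gene made by the authors. Salmon 1.2.1, STAR, featureCounts, DESeq2, limma and hg38 are named in the submitters' processing notes without their roles. Strand use in the counting was not given in the sources used here. Between 74.4% and 80.8% of low values were whole multiples of 1 read within 0.02, so whole reads could be recovered only in part and count models were not used. Normalised values summed to between 27878600 and 32309900 per library.

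Genes with a mean of at least 10 (17534) were taken as log2(value + 1) and fitted with limma 3.58.1 in R 4.3.3: a mean per group over all 8 libraries, 7 contrasts, and eBayes with the variance trend (4 residual and a median of 5.51 prior degrees of freedom). Tests were two-sided, adjusted by Benjamini-Hochberg within a contrast over all genes tested. The fit was tested on simulated data. The 42 genes and all lists were chosen with earlier results of these data known. Full values are given for the 6 called genes with the smallest adjusted p in each contrast and the gene with the smallest p against DMSO in each role. Of each further list 2 genes were named by the smallest p against DMSO, and not all of these have full values. TFEC, PLA2G15 and ATP6V0A1 are given by their changes only, without values of single libraries. CTSL, GLA and other genes with values lie outside that rule. Identifiers were matched to GENCODE 29 without version (58064 of 60240). Annotated genes overlap 23 of the 42, and 11 of these overlap one at a mean of at least 10. Alternatives were TMM and quantile scaling, other pseudocounts and filters, robust or untrended eBayes, only the groups compared, a replicate block and leaving out each library. Tables were prepared with Python 3.11.15 and pandas 2.3.3, and plots with matplotlib 3.10.9.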

Additional observations from a re-analysis of the deposited data

How the results depend on the processing

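The alternatives below give the number of the 42 genes called, with 1 choice changed at a time. Leaving out each library in turn gave 0 to 1 in decitabine, 2 to 6 in RG3039, 8 to 16 in the combination, 1 to 5 for the combination against decitabine, 0 to 2 against RG3039, 1 to 3 for decitabine against RG3039 and 0 to 0 for the interaction. In those fits a group's remaining library is taken to vary as the other groups do. With quantile normalisation decitabine gave 3 and decitabine against RG3039 gave 4. With no filter on low values RG3039 gave 4, the combination 10 and the combination against RG3039 gave 1; more genes were then tested. Without the variance trend decitabine gave 0, RG3039 3, the combination 8, the combination against decitabine 2 and against RG3039 0, and decitabine against RG3039 gave 1; the cause was not tested. With only the groups compared RG3039 gave 4 and decitabine against RG3039 gave 1, with fewer samples in the fit. Replicate numbers in the labels were not taken as pairs in the main fit. Same-numbered libraries correlated at -0.08 to 0.16 in their deviations from the group means. With 2 libraries a group, these correlations cannot show whether wells were handled as pairs. With the replicate block the counts were 2 in decitabine, 8 in RG3039, 19 in the combination and 2 for decitabine against RG3039. TMM factors, other pseudocounts, a mean of at least 50 and robust estimates kept every count within 1.5 times. No named gene's change reversed under any alternative while called. The motif count of 8 windows was 5 with TCACGTGA and 2 with its 10-letter extension. Depth was at least 20711800 estimated reads, and 2 libraries a group limit what can be called.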

Other observations

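Genes that deliver hydrolases to the lysosome and genes of the mTORC1, TFEB and autophagy pathway were measured in the same libraries. Of 23 sorting genes, 3 rose and 2 fell in the combination (21.7%), 1 rose and 1 fell in RG3039 (8.70%), and none was called in decitabine. These shares stood near those of all genes (24.1% and 8.12%). IGF2R, the large mannose 6-phosphate receptor, was at 1430.3 and 1539 in DMSO, 2011 and 1908 in decitabine, 3027 and 2931 in RG3039 and 4769.8 and 4938 in the combination. The 4 groups did not overlap. It rose in RG3039 (1.01 ± 0.13, adjusted p = 0.0023) and in the combination (1.71 ± 0.13, adjusted p = 6.64e-05), and both calls held without each library. VPS18, a subunit of the HOPS and CORVET tethers, rose in the combination from 401 and 379 to 789.9 and 883 (1.10 ± 0.22, adjusted p = 0.00629, and 0.051 without combination replicate 2).

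Of 27 genes of the mTORC1, TFEB and autophagy list, 7 rose and 3 fell in the combination, 4 rose and 1 fell in RG3039, and 1 rose in decitabine. These are 37.0%, 18.5% and 3.70%, beside 24.1%, 8.12% and 2.14% of all genes. SQSTM1, the autophagy receptor p62, was at 3395 and 4391 in DMSO, 4959 and 5567 in decitabine, 7313 and 9213 in RG3039 and 14217 and 16225 in the combination. The 4 groups did not overlap, and the change in the combination was 1.98 ± 0.17 (adjusted p = 0.000119, held without each library). Of the MiT family genes, TFE3 and TFEC were called in opposite directions. TFE3 rose in RG3039 (1.59 ± 0.24, adjusted p = 0.00388) and in the combination (1.90 ± 0.24, adjusted p = 0.000595), from 216 and 300.4 in DMSO to 688 and 861 in RG3039 and 952 and 959 in the combination, and both calls held without each library. TFEC fell in the same groups (-6.66 ± 0.55 and -5.21 ± 0.55, adjusted p = 0.000406 and 0.000248). TFEB lay between 26.5 and 79.5 and MITF between 117 and 264 in the 8 libraries, and neither was called. TFE3 was named after its values were seen.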
